A study of Mus musculus with 4 samples.

Results

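The EGF family ligands and their ErbB receptors were examined in cultured mouse keratinocytes with and without the glucose transporter Glut1. The family was taken as 10 genes chosen by name, namely the receptors Egfr, Erbb2 and Erbb3 and the ligands Areg, Ereg, Hbegf, Tgfa, Btc, Epgn and Nrg1. For each gene the brightest array row annotated to it alone was used, which gave values for 9 of the 10 genes among 22180 genes tested. Areg had no array row annotated to it alone, so its expression was not analysed here.

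EGF family ligands are made as membrane-bound precursors and are released by proteases at the cell surface. Most of them bind EGFR, whereas neuregulins bind ErbB3 and ErbB4. ErbB2 has no known ligand and signals as a dimer partner, and ErbB3 has little kinase activity of its own. In the epidermis this system works largely in an autocrine loop, in which keratinocytes make both the ligands and the receptor and so drive their own proliferation, migration and wound response.

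Primary keratinocytes, the epithelial cells of the epidermis, came from 1-week-old C57BL/6J mice of 2 genotypes, with 4 mice each. Glut1-deficient cells were from Glut1 fl/fl mice carrying K14 Cre, a recombinase driven by the keratin 14 promoter of basal keratinocytes, and the WT cells were from Glut1 fl/fl mice. Cells of both genotypes grew in low-calcium medium (0.05 mM calcium chloride) with EGF at 5 ng/ml, insulin, hydrocortisone and pituitary extract, so receptor ligand was present in every culture. Equal numbers were replated after 3 days and collected after 1 further day. Each array holds RNA of 2 pooled plates, and each genotype has 2 arrays. Each Glut1-deficient sample held 1000000 cells at lysis and each WT sample 1500000, a difference that cannot be told apart from genotype.

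Values are log2 RMA intensities on MoGene 2.0 arrays, where a difference of 1 is a 2-fold difference. Array medians lay between 4.07 and 4.11, and the small number of arrays limits the precision. Slc2a1, which encodes Glut1, had log2 values of 11.01 and 11.01 on the Glut1-deficient arrays, against 11.13 and 11.05 on the WT arrays. A dimmer Slc2a1 row read 4.80 and 4.44 on the Glut1-deficient arrays and 5.18 and 5.09 on the WT arrays. The position of the deletion relative to the probes was not known here, so these rows do not check the genotype, which is used as labelled. Of 11 keratinocyte markers, 10 were above the array medians and Krt15 was below them, and the brightest were the basal keratin Krt14, the desmosomal protein Dsp and the junctional protein Perp. Fibroblast markers summed to intensities of 1429 and 927 on the Glut1-deficient arrays, against 639 and 604 on the WT arrays, and 11 of 12 had positive log2 fold changes (Pdgfra 2.15, Dcn 2.01 and, as the exception, Fbln1 -0.61). Of these, Twist2 rose (2.40; limma adjusted p = 0.0129) and 11 did not pass. Melanocyte markers summed to 1023 and 1089 on the Glut1-deficient arrays and to 518 and 425 on the WT arrays. Of 10, 9 had positive log2 fold changes (Dct 1.77, Pmel 1.69 and Tyrp1 1.31), and Sox10 was the exception at -0.14. Dct, Pmel, Tyrp1 and Mlana rose and 6 did not pass, among them Tyr and Kit, whose groups overlapped. Over all 22180 genes tested, 1.79% rose and 10725 had positive log2 fold changes. The keratinocyte markers summed to 21857 and 22749 on the Glut1-deficient arrays and to 24358 and 24008 on the WT arrays. Of the 11, 7 had negative log2 fold changes (among them Col17a1 -0.73 and Itgb4 -0.57). The other 4 were positive (among them Dsg3 0.47 and Perp 0.30), and none of the 11 passed. Schwann cell markers (6, highest Mbp), leukocyte markers (8, highest Csf1r) and endothelial markers (7) had median log2 fold changes of -0.13, -0.08 and 0.08. Of these, 12 lay below the array medians throughout, and the endothelial receptor gene Kdr stood out at 2.38. Kdr rose (limma adjusted p = 0.0136), and no other marker of these 3 types passed. The endothelial markers summed to 298 and 278 on the Glut1-deficient arrays and to 133 and 133 on the WT arrays. Of the 7, 4 had positive and 3 negative log2 fold changes, with Pecam1 at -0.35. In RNA of whole cultures, more or fewer cells of a type and more or less RNA per cell cannot be told apart. The part of these cells in the results below was not tested.

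Of the 9 genes measured, 2 passed limma's test over all genes (Benjamini-Hochberg adjusted p under 0.05), and both were ligands that rose. Over all genes tested, 2.84% passed, 1.79% higher and 1.05% lower in Glut1-deficient cells. The arrays of the genotypes did not overlap for 6 of the 9, with 5 higher and 1 lower in Glut1-deficient cells, where 25.5% of all genes were higher and 27.7% lower in this sense. At an unadjusted p under 0.05 in limma stood 6 of the 9, against 22.2% of all genes. The median log2 fold change of the 9 was 0.40, against -0.0074 over all genes.

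**Figure D1:**
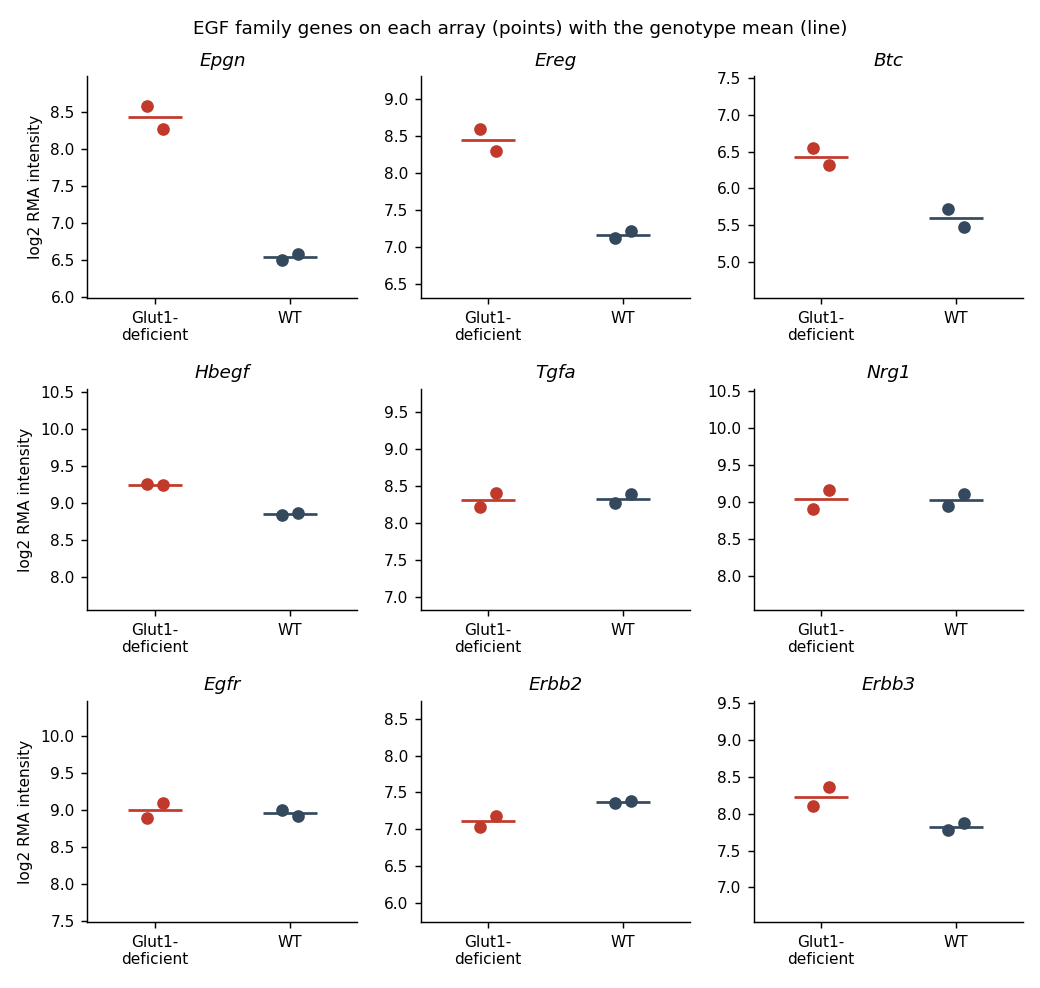
log2 RMA intensity (y axis, 3 log2 units in each panel) of the 9 measured genes on the 2 Glut1-deficient arrays (red) and the 2 WT arrays (dark blue), with lines at the genotype means. Epgn, Ereg and Btc stand clearly apart between genotypes, while Tgfa, Nrg1 and Egfr overlap.

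Epgn encodes epigen, a low-affinity ligand of EGFR made in skin, and had the largest difference of the family. Its log2 values were 8.59 and 8.28 on the Glut1-deficient arrays, against 6.50 and 6.59 on the WT arrays. Both Glut1-deficient arrays thus lay far above both WT arrays, with a mean of 8.43 ± 0.222 in Glut1-deficient cells against 6.54 ± 0.0632 in WT cells (SD, n = 2 each). Epgn rose 3.71-fold (95% interval 2.93 to 4.71; limma adjusted p = 0.0145), the 47th highest log2 fold change of the 22180 genes. Ereg encodes epiregulin, a ligand of EGFR and ErbB4 that keratinocytes make. It read 8.59 and 8.31 on the Glut1-deficient arrays and 7.12 and 7.21 on the WT arrays, and again the groups did not overlap. Its difference was 1.28 on the log2 scale (SE 0.126; limma adjusted p = 0.0223). A second, dimmer row of Ereg had 5.56 and 5.44 on the Glut1-deficient arrays and 5.20 and 5.20 on the WT arrays, a difference of 0.31 on the log2 scale (limma adjusted p = 0.152 over all rows). The rows of Ereg thus had the same direction and different sizes.

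Btc encodes betacellulin, another ligand of EGFR and ErbB4. Its log2 values of 6.55 and 6.31 on the Glut1-deficient arrays exceeded those of 5.72 and 5.48 on the WT arrays. The log2 fold change of 0.83 (95% interval 0.48 to 1.18) narrowly missed the threshold (limma adjusted p = 0.0536). Hbegf encodes heparin-binding EGF-like growth factor, a ligand of keratinocyte migration in wounds. It gave 9.26 and 9.24 on the Glut1-deficient arrays and 8.84 and 8.86 on the WT arrays. The replicate arrays lay close together and apart from the other genotype, and the log2 fold change was 0.40 (95% interval 0.19 to 0.62; limma adjusted p = 0.0801).

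The remaining ligands showed no difference beyond the spread between arrays. Tgfa, which encodes transforming growth factor alpha, an autocrine EGFR ligand of keratinocytes, had log2 values of 8.21 and 8.41 on the Glut1-deficient arrays, against 8.26 and 8.38 on the WT arrays. These groups overlapped, and the 95% interval of the log2 fold change ran from -0.30 to 0.27. Nrg1, which encodes neuregulin 1, a ligand of ErbB3 and ErbB4, read 8.91 and 9.17 on the Glut1-deficient arrays and 8.95 and 9.12 on the WT arrays. Its 95% interval ran from -0.32 to 0.34. The intervals of Tgfa and Nrg1 thus lay wholly below those of Epgn and of the brighter Ereg row, whose lower ends were 1.55 and 0.96. They overlapped that of the dimmer Ereg row, which ran from 0.07 to 0.54. The other ligands of the family, Egf, Nrg2, Nrg3 and Nrg4, had mean log2 values between 3.38 and 4.51 in either genotype, near the array medians or below them. Their log2 fold changes were 0.16, 0.04, 0.08 and -0.06, and none passed.

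**Figure D2:**
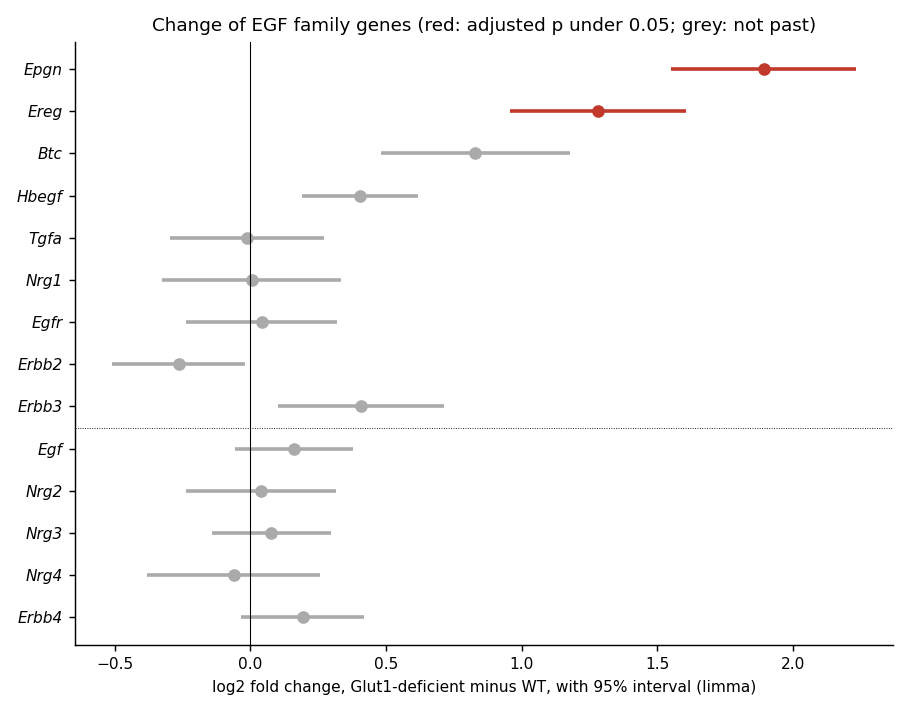
log2 fold change (x axis, Glut1-deficient minus WT) with its 95% interval for the 9 measured genes (above the dotted line) and the 5 other family genes (below it). Epgn and Ereg (red) passed the test, and the intervals of Tgfa, Nrg1 and Egfr span 0.

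Among the receptors, none passed the test. Egfr, the receptor of most of these ligands, had log2 values of 8.90 and 9.10 on the Glut1-deficient arrays and 9.00 and 8.92 on the WT arrays. The groups overlapped, and the 95% interval of the log2 fold change was -0.24 to 0.32. Erbb2 read 7.04 and 7.18 on the Glut1-deficient arrays, against 7.36 and 7.39 on the WT arrays. It was the 1 gene of the 9 with both Glut1-deficient arrays lower, by a log2 difference of -0.26 (limma adjusted p = 0.199). Erbb3 went the other way, with 8.10 and 8.36 on the Glut1-deficient arrays and 7.78 and 7.87 on the WT arrays, which is a log2 difference of 0.41 (limma adjusted p = 0.143). Pigment cells also express Erbb3, and the summed melanocyte markers given above were higher on the Glut1-deficient arrays. Of these markers, Sox10 had a negative log2 fold change (-0.14). The part of pigment cells in the Erbb3 difference was not tested. Erbb4 had mean log2 values of 3.39 in Glut1-deficient and 3.20 in WT cells, below the array medians.

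The calls rest on 2 arrays per genotype, and their number moved with the variance model. With an intensity trend in limma's variance prior, 5 of the 9 rose (Epgn, Ereg, Btc, Hbegf and Erbb3) and 0 fell, where 6.06% of all genes were called higher and 5.98% lower. With any 1 array left out, 0 genes passed in limma anywhere on the array (2948 to 4627 genes at unadjusted p under 0.05). The fold change of Epgn on the log2 scale then stayed between 1.74 and 2.05 and that of Ereg between 1.14 and 1.43. Over these 4 cases the limma adjusted p ran from 0.0685 to 0.214 for Epgn and from 0.0736 to 0.238 for Ereg. The lowest of these log2 fold changes, 1.74 for Epgn and 1.14 for Ereg, came without Glut1-deficient array 1. Fibroblast markers summed to 1429 on that array and to 927 on Glut1-deficient array 2, both above the WT sums of 639 and 604. The part of fibroblasts in the differences of Epgn and Ereg was not tested.

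**Figure D3:**
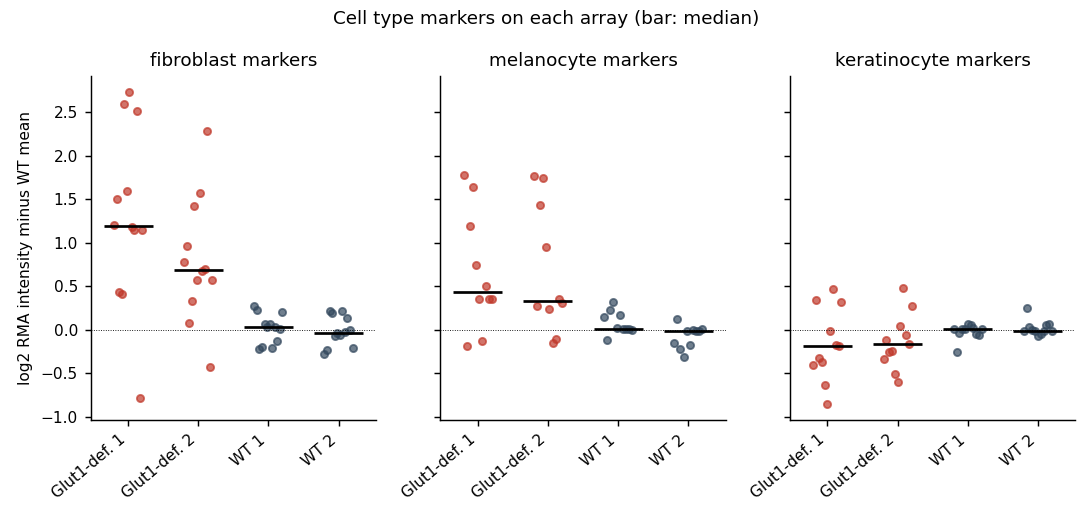
Marker genes of fibroblasts, melanocytes and keratinocytes on each array (points; y axis, log2 RMA intensity minus the WT mean of the gene) with the list median (bar). Fibroblast medians were 1.19 and 0.69 on Glut1-deficient arrays 1 and 2, and melanocyte medians 0.43 and 0.33.

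The 3 ligands with the largest differences are neighbours in the genome. In the RefSeq gene order of mouse assembly GRCm38.p6, Epgn, Ereg, Areg and Btc follow each other on chromosome 5 with 0 other coding genes between them. Around this block, 20 coding genes with a value (10 on each side) had a median log2 fold change of -0.03. Of these, 2 rose, 2 fell and 16 did not pass, where 1.79% of all genes rose and 1.05% fell. Among the 20, log2 fold changes ran from -1.78 for Ppbp to 1.24 for Rassf6. The median thus covers changes in both directions. The nearest flanking genes were Mthfd2l, a mitochondrial folate enzyme, at -0.19 and Parm1, a mucin-like membrane protein, at 0.52, and neither passed (limma adjusted p = 0.264 and 0.0539). On the Mthfd2l side lie CXC chemokine genes, of which Cxcl5 fell by 1.29 on the log2 scale (limma adjusted p = 0.0197). Cxcl1 and Cxcl2, the nearest of them, had log2 fold changes of -0.60 and -0.30 and did not pass. The 1 direct neighbour with a value that is not coding, Gm19619 beside Btc, was at 2.80 and 2.77 on the Glut1-deficient arrays and at 2.64 and 2.80 on the WT arrays.

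**Figure D4:**
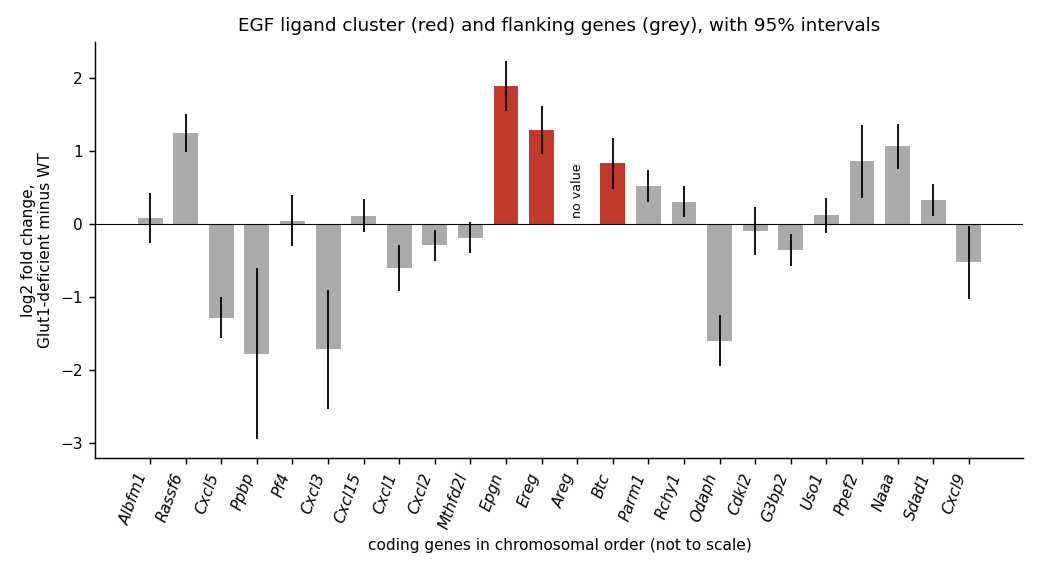
log2 fold change (y axis, Glut1-deficient minus WT, with 95% intervals) of the EGF ligand block on chromosome 5 (red) and 10 coding genes on each side (grey), in gene order and not to scale. Epgn, Ereg and Btc decline in that order from 1.89 to 0.83, and most chemokine genes to their left lie below 0.

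The 250 bases before the start of the genes were read from the RefSeq promoter table, which held 6 of the 10 family genes. It held no window for Ereg, which rose, or for Erbb3, Hbegf and Nrg1. The windows of Epgn, which rose, and of Btc, which lies in the same block and did not pass, are shown beside that of Tgfa, whose groups overlapped. All are in GRCm38.p6, on the strand of the gene, and capitals mark motif matches. Epgn lies at chr5:91027267-91027516 (+), Btc at chr5:91402995-91403244 (-) and Tgfa at chr6:86194972-86195221 (+).
Epgn: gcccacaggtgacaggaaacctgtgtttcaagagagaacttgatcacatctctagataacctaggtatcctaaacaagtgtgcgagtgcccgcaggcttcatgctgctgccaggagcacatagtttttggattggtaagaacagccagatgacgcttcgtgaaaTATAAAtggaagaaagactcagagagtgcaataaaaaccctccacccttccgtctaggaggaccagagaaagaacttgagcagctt
Btc: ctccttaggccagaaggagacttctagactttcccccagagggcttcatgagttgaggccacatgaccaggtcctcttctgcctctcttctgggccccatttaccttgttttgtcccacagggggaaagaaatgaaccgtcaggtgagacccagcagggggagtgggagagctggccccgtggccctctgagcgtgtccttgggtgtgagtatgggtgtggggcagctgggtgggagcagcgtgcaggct
Tgfa: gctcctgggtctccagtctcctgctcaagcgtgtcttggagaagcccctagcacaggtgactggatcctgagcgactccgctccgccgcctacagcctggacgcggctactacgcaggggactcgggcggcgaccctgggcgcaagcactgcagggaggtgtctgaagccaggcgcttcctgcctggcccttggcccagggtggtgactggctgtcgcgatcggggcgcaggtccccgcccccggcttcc
Both strands were searched for the AP-1 site TGANTCA, the cyclic AMP response element TGACGTCA, the C/EBP-ATF core TGATGCAA, the E-box CACGTG and the TATA box TATAAA, letters that do not overlap one another in these windows. Epgn holds 1 match, TATAAA from -86 to -81 of the start, and Btc and Tgfa hold 0. Of all 32851 promoter windows of this length, 12.4% hold TATAAA, 6.75% TGANTCA, 6.02% CACGTG, 1.55% TGACGTCA and 0.791% TGATGCAA. The window of Areg holds TGACGTCA from -61 to -54 and TATAAA from -31 to -26. Those of Egfr and Erbb2 hold no match. No match says only that these letters are not in the window.

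The genes that release, bind, restrain and transmit these ligands were read from lists by role. Together with the 5 other family genes these came to 78 with a value, of which 3 rose, 0 fell and 75 missed the threshold, where 1.79% of all genes rose and 1.05% fell. The absence of falls did not hold in limma with an intensity trend, where 12 rose and 12 fell. With that trend, 6.06% of all genes rose and 5.98% fell. The median log2 fold change of the 78 was 0.0062. All 3 genes that rose without the trend were negative feedback regulators that ERK signalling induces downstream of the receptors.

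Of 12 genes of ligand release, 0 passed in limma (5 at unadjusted p under 0.05, against 22.2% of all genes), and the median was -0.09. Adam17, the main protease that sheds Epgn, Ereg, Hbegf and Tgfa, had log2 values of 8.73 and 8.77 on the Glut1-deficient arrays, against 8.78 and 8.79 on the WT arrays. The 95% interval of its log2 fold change was -0.25 to 0.18. Adam10, the main protease of Btc, had a log2 fold change of -0.20 (95% interval -0.43 to 0.03). The intervals of both proteases, which are named for their role, span 0. Adam9, another membrane metalloproteinase, was at 10.24 and 10.19 on the Glut1-deficient arrays and at 9.43 and 9.64 on the WT arrays (limma adjusted p = 0.0514). Rhbdl2, a rhomboid intramembrane protease, was at 4.80 and 4.34 on the Glut1-deficient arrays and at 5.85 and 5.38 on the WT arrays (limma adjusted p = 0.0848). Frmd8, which stabilises the iRhom and ADAM17 complex, had a log2 fold change of -0.45, and Adam12 one of -0.36. Neither of these passed. An intensity trend in limma called Adam9 higher and Adam12, Frmd8 and Rhbdl2 lower, where it called 6.06% of all genes higher and 5.98% lower.

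Of 6 surface proteins that hold or present ligands, 0 passed in limma (3 at unadjusted p under 0.05, against 22.2% of all genes). The heparan sulphate proteoglycans Sdc1 and Sdc4, the hyaluronan receptor Cd44 and the tetraspanin Cd9, a partner of the HB-EGF precursor, had log2 fold changes of -0.45, -0.31, -0.24 and -0.21. The list median was -0.23. Sdc1, Sdc4 and Cd44 were called lower with an intensity trend in limma, where 5.98% of all genes were.

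Among 18 receptor inhibitors and genes of receptor degradation, 0 passed in limma (5 at unadjusted p under 0.05, against 22.2% of all genes), with a median of 0.01. Errfi1, an EGFR inhibitor induced by receptor signalling, read 9.36 and 9.19 on the Glut1-deficient arrays and 8.81 and 8.78 on the WT arrays. Lrig1, which promotes ErbB receptor degradation and marks epidermal stem cells, ran opposite, with 7.92 and 8.17 on the Glut1-deficient arrays and 8.68 and 8.54 on the WT arrays. Neither passed (limma adjusted p = 0.0818 for Errfi1 and 0.0871 for Lrig1). Both did with an intensity trend in limma, where 6.06% of all genes were called higher and 5.98% lower. The related Lrig2 had a log2 fold change of 0.38 and the phosphatase Ptpn1 one of -0.36.

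Among 20 genes of signal transduction, 0 passed in limma (5 at unadjusted p under 0.05, against 22.2% of all genes), with a median of -0.03 and values from -0.25 to 0.53. The Ras exchange factor Sos2 was highest at 0.53 (limma adjusted p = 0.0576), followed by the kinase Braf at 0.35 and the Ras GTPase-activating protein Rasa1 at 0.30. Stat3, a transcription factor activated by EGFR, was lowest at -0.25. An intensity trend in limma called Sos2, Braf and Rasa1 higher and Stat3 and the kinase Akt1 lower. It called 6.06% of all genes higher and 5.98% lower.

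Of 17 genes that ERK signalling induces, 3 rose, 0 fell and 14 did not pass, with a median of 0.34, where 1.79% of all genes rose and 1.05% fell. Dusp5, a nuclear ERK phosphatase, had log2 values of 9.62 and 9.58 on the Glut1-deficient arrays, against 8.62 and 8.76 on the WT arrays (limma adjusted p = 0.0249). Spry2 and Spry4 encode Sprouty inhibitors of receptor signalling. Spry4 read 7.18 and 6.85 on the Glut1-deficient arrays and 6.02 and 5.73 on the WT arrays (limma adjusted p = 0.042). Spry2 read 6.83 and 6.78 on the Glut1-deficient arrays and 6.14 and 6.10 on the WT arrays (limma adjusted p = 0.034). Over the 17 genes, both Glut1-deficient arrays lay above both WT arrays for 10 and below them for 3. Of all genes, 25.5% were higher and 27.7% lower in this sense. At an unadjusted p under 0.05 in limma stood 12 of the 17, against 22.2% of all genes. Apart from Dusp5, Spry2 and Spry4, the list ran from -0.39 to 0.97 on the log2 scale. In this list 12 log2 fold changes were positive and 5 negative. Named after their values were seen, the ERK phosphatase Dusp6 (-0.39), the early response gene Ier3 (-0.33) and the cyclin Ccnd1 (-0.28) were lower on both Glut1-deficient arrays. None of them passed, while all 3 did with an intensity trend in limma. That trend also called Dusp4 (0.97), Fos (0.56), Etv5 (0.51) and Myc (0.39) higher, besides Dusp5, Spry2 and Spry4. Over all genes, it called 6.06% higher and 5.98% lower. The list was drawn up with earlier results of these arrays known, so its direction is not independent evidence.

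**Figure D5:**
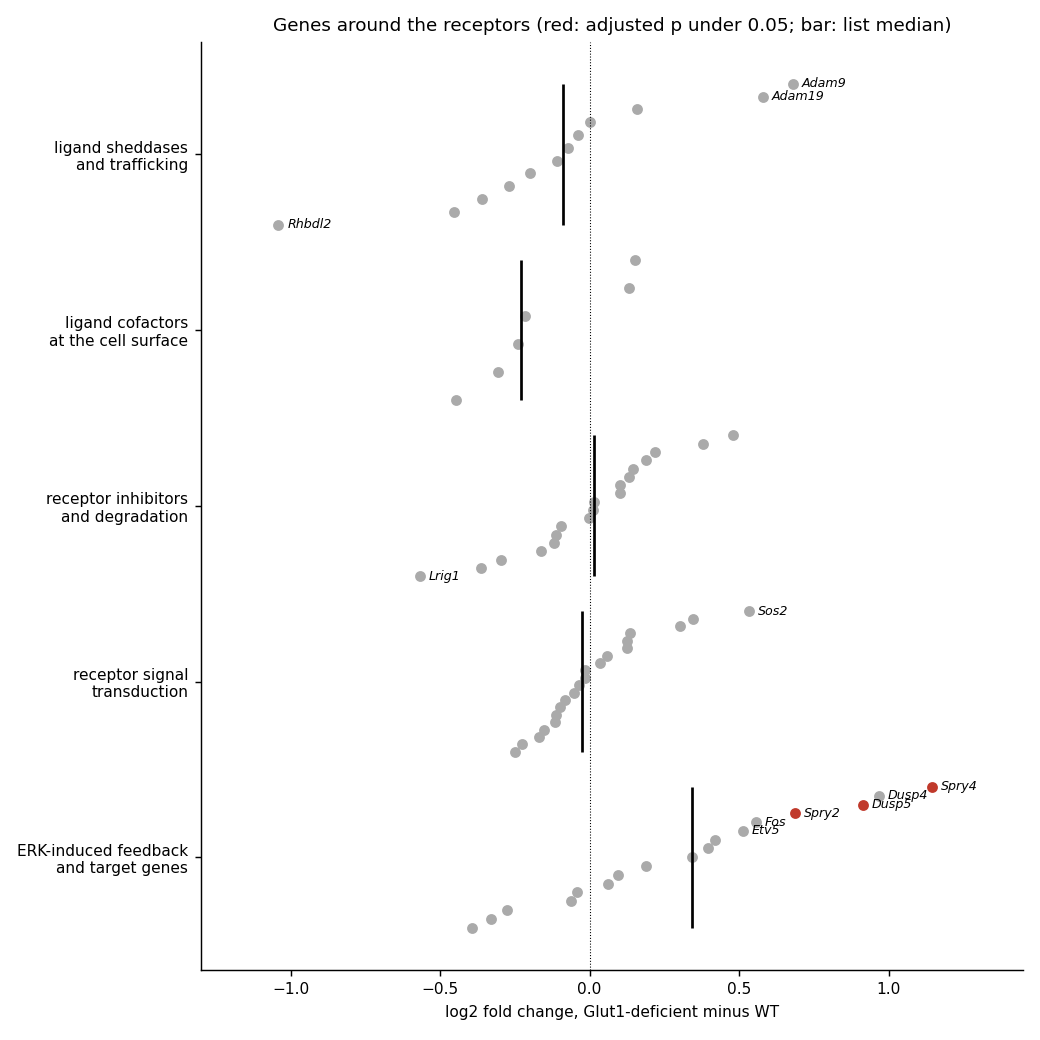
log2 fold changes (x axis, Glut1-deficient minus WT) of genes around the receptors, 1 point per gene, by role, with list medians (bars). Dusp5, Spry2 and Spry4 (red) passed the test, and names mark genes beyond 0.5 in either direction.

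Genes with the profile most like that of Epgn and Ereg were sought by the root mean square distance between log2 profiles centred over the 4 arrays. Nearest to Epgn were Ppp1r15a, a regulatory subunit of the eIF2alpha phosphatase (distance 0.0379), the glycerol channel Aqp9 (0.0655) and the secreted glycoprotein Stc2 (0.0662). Nearest to Ereg were the zinc finger gene Zfp945 (0.0199), Rassf6, a Ras association domain gene (0.049), and the transcription factor Klf9 (0.0503). Rassf6 also lies near the ligand block on chromosome 5, with 8 coding genes between it and Epgn. It read 6.95 and 6.78 on the Glut1-deficient arrays and 5.60 and 5.65 on the WT arrays. With 4 arrays, such likeness describes little beyond the size of the difference between genotypes and the order of the replicate arrays.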

How the data were processed

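The deposited values are log2 intensities per transcript cluster, obtained by the authors using RMA in Affymetrix Expression Console (per the submitters' processing notes). RMA gives all arrays a common distribution, so changes are relative to other genes. No source names versions or a genome build.

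The platform annotation gave exactly 1 gene symbol for 23521 of 41345 rows. Those rows were used, and the brightest by mean stood for its gene. Glut1-deficient arrays were compared with WT arrays by lmFit and eBayes of limma 3.58.1 (R 4.3.3; two-sided, no trend, Benjamini-Hochberg over 22180 genes), a fit tested on simulated data. Exact permutation of 2 against 2 arrays cannot go below p = 0.333. The arrays are labelled biological replicates, and p-values measure the spread between pools of 2 plates. Replicates were not duplicates (r = 0.9951 for Glut1-deficient and 0.9962 for WT arrays).

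The family members, gene lists, tests and naming rule were chosen with earlier results of these data known. The rule took all family genes, genes of each list that passed or else up to 4 with the smallest p, up to 3 of the brightest markers per cell type, the 3 profiles nearest to those of the 2 members with the smallest p, and neighbours of the chromosome 5 ligands. The 10 coding genes on each side were added after values were seen. Alternatives were other variance models, normalizations, a dim-gene filter, other row choices, single arrays left out, a replicate block and a plain pooled-variance statistic.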

Additional observations from a re-analysis of the deposited data

How the results depend on the processing

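Over the 15 alternatives, the log2 fold changes of Epgn, Ereg, Btc, Hbegf, Erbb2 and Erbb3 kept their direction. Of 135 recomputed fold changes of the 9 genes, 5 turned sign, each of a gene near 0 with 1 array left out: the values with 1 array left out ran from -0.063 to 0.144 for Egfr, from -0.111 to 0.0843 for Tgfa and from -0.124 to 0.135 for Nrg1. With an intensity trend, 2671 genes, 5 family genes and 24 genes of the pathway lists (12 rose and 12 fell) passed, and with robust estimation added 2729, 5 and 25 (12 rose and 13 fell), against 630, 2 and 3 (3 rose and 0 fell). Among genes above the median level, 2327, 4 and 20 (12 rose and 8 fell) passed, where fewer genes were tested. Btc alone joined Epgn and Ereg when arrays were centred on their median (limma adjusted p = 0.0481, within a range of 0.00877 to 0.287 over its alternatives). With the dimmest row of each gene, 1 family gene passed, since the second row of Ereg did not. Leaving out 1 array, which assumes that the lone array varies like the other genotype, left 0 genes, 0 family genes and 0 pathway genes in every case (limma; 4 to 5 family genes and 14 to 28 pathway genes at unadjusted p under 0.05). The plain pooled-variance statistic also gave 0, 0 and 0 (3646, 4 and 24 at unadjusted p under 0.05). With the replicate number as a block, 37 genes, 0 family genes and 0 pathway genes passed (limma; 5 and 27 at unadjusted p under 0.05), with adjusted p of 0.0531 for Epgn and 0.0699 for Ereg. The labels do not give a pairing, and same-numbered arrays did not deviate together (r = -0.025 over genes). The cause of these shifts was not tested. Without detection calls, no limit can be set for dim genes such as Erbb4.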

Other observations

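Coding genes close to the chromosome 5 ligand block, which were looked at because of their position after the values were seen, moved in both directions. Besides Rassf6, Naaa rose. It encodes an acid amidase of the lysosome and had log2 values of 8.16 and 8.13 on the Glut1-deficient arrays, against 7.22 and 6.95 on the WT arrays (limma adjusted p = 0.0284). Odaph, a gene of tooth enamel formation, fell to 4.52 and 4.79 on the Glut1-deficient arrays, against 6.15 and 6.36 on the WT arrays (limma adjusted p = 0.0202). The chemokine gene Ppbp had 8.64 and 10.02 on the Glut1-deficient arrays and 10.97 and 11.24 on the WT arrays, and Cxcl3 had 5.62 and 6.53 on the Glut1-deficient arrays and 7.65 and 7.95 on the WT arrays. Both were lower on each Glut1-deficient array, and with the wide spread between these arrays neither passed (limma adjusted p = 0.113 and 0.0642).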
